A study of Gallus gallus with 12 samples.

Results

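The cell cycle and DNA replication genes of chicken primordial germ cells (PGCs) were taken by name from the deposited expression table: cyclins of the A, B, D and E types, cyclin-dependent kinases (CDKs) and their inhibitors, E2F factors, CDC6, CDC7, CDC20, CDC25 and CDC45 genes, MCM, ORC and GINS genes, and the aurora, polo, BUB and CENP genes. The name rule held 91 of the 24356 genes in the table. It also took in names that share a stem but not the function: *CDC73*, *CDC20B*, and *AURKAIP1* and *CDKN2AIP*, which encode partners of the proteins they are named after. The CDKs that act on transcription were taken in as well, and of these *CDK7* also activates other CDKs. For 13 groups by role a list was drawn up, and *CDK3* was on none of them. *CDK4*, *MCM7*, *CCNB2* and *CENPA* were looked for, and the table holds no gene under these names. It holds 10821 genes without a name, which the rule cannot reach, so these genes may be present unnamed.

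PGCs of white Leghorn embryos were sorted for SSEA-1, a surface antigen of chicken PGCs, by FACS, and their RNA was sequenced. Circulating PGCs (cPGCs) came from blood at E2.5, and gonadal PGCs (gPGCs) came from gonads, dissociated enzymatically, at E4.5 and E6.5. Males were ZZ and females ZW, and the labels name no treatment or transgene. Each of the 6 groups had 2 libraries, each from a pool of 6 to 14 embryos, so that 4 libraries stood for a stage and the sexes could be compared 2 against 2. Expression is given in TPM, a unit that corrects reads for gene length and brings each library to the same total, so that levels can be compared between genes. The reads recovered on genes ran from 7185031 to 13749166 per library, and 3 reads on a gene of 1000 bases came to 0.386 to 0.702 TPM. The first E4.5 pools had the fewest reads, 7566925 in males and 7185031 in females.

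The germ cell markers *DDX4*, *DAZL* and *NANOG* were present in all 12 libraries, and 6 of the 7 germ cell markers found were at 1 TPM or more in each of them. Hemoglobin genes took 0.257% to 16.5% of TPM in the E2.5 libraries and at most 0.0631% in the others. Of the 13 gonadal somatic markers, 6 were under 1 TPM in every library, and the summed level of the list was 5.94 to 8.35 TPM at E2.5, 5.17 to 15.6 at E4.5 and 8.05 to 21.5 at E6.5. The stages differ in the source of the cells as well as in age, and the difference between blood and gonad cannot be told apart from that between days.

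A dividing cell passes from G1, when cyclin D and cyclin E kinases release the E2F factors from the RB protein and origins of replication are loaded with the ORC, CDC6 and MCM proteins, to S phase, when CDC7, CDC45 and the GINS complex turn the loaded MCM ring into a working helicase. Cyclin B with CDK1 then drives entry into mitosis, and most CENP proteins help to hold the chromosomes to the spindle. CDC20 with the anaphase-promoting complex starts the separation of the chromosomes once the BUB checkpoint is satisfied. Messages for the mitotic group typically accumulate in G2 and M, and those for the licensing group at G1 to S. PGCs divide while they migrate and after they settle in the gonad.

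Most of the cell cycle genes were well expressed. The mean over the 12 libraries was 100 TPM or more in 16 members, 10 to 100 TPM in 49, 1 to 10 TPM in 17 and under 1 TPM in 9, with a median of 31.9 TPM. The highest was *CDK1*, the kinase of mitotic entry, with a mean of 1368 TPM and a range of 750 to 2147 TPM over the libraries. It was followed by *CENPW*, a histone-fold protein of the centromere, with a mean of 530 TPM, *CCNB1*, which encodes cyclin B1, with 440 TPM, *BUB3*, a checkpoint protein, with 386 TPM, and *ORC6*, a subunit of the origin recognition complex, with 287 TPM. Library ranges of *CENPW* (290 to 813 TPM), *CCNB1* (265 to 767 TPM), *BUB3* (143 to 739 TPM) and *ORC6* (183 to 392 TPM) overlapped, and the order among these neighbours did not hold in every library.

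The genes named *CDKN2A*, *CDKN2B* and *CDKN2C* were at the other end, and what these chicken loci encode was not examined. *CDKN2A* and *CDKN2B*, which lie next to each other on the Z chromosome (78846780 to 78856728 and 78858726 to 78862135 in GRCg6a), had 0 reads in all 12 libraries. A level of 3 reads, taken as the limit that a count of 0 allows, would be 0.254 to 0.461 TPM for *CDKN2A* and 0.203 to 0.370 TPM for *CDKN2B*, by counting error alone. *CDKN2C* had 10 reads over all libraries, 7 of them in the second female E6.5 pool. *CCNB3*, an oocyte and meiotic cyclin in mammals, had 2 reads in all. *CDK18* had 16, all at E6.5, with 7 and 8 in the female pools and 1 in the second male pool. A gene on the opposite strand covered 87.5% of the exon bases of *CCNB3*, and the kits used do not mark strand. *CDKN1A*, which encodes the p21 inhibitor, had 2.02 ± 1.84 TPM at E2.5, 4.64 ± 5.86 TPM at E4.5 and 2.73 ± 2.14 TPM at E6.5 (SD, n = 4 each). *CDKN1B*, which encodes p27, was higher, with 16.2 ± 5.04, 27.9 ± 25.7 and 12.7 ± 5.32 TPM (SD, n = 4 each).

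From E2.5 to E6.5, 12 members rose and 1 fell. Of the 12, 11 were in the groups listed for mitosis and the centromere. Among these were the mitotic kinases and cyclin *CDK1*, *AURKA* and *CCNB1* and the anaphase activator *CDC20*. The centromere proteins were *CENPM*, *CENPP*, *CENPQ*, *CENPH*, *CENPK* and *CENPW*. The CDK phosphatase *CDKN3* was counted here because it was listed with the checkpoint and anaphase genes. The member outside these groups was *ORC6*. The gene that fell was *PLK2*, a polo-like kinase induced by stress and serum. Both sexes entered the fit with sex as a covariate, and 84 members were tested. The 12 that rose were 14.3% of the members tested, beside 2.37% of all 13395 genes tested that rose. The 1 that fell stood beside 4.41% of all genes, and 6.79% of all genes changed in either direction. The median log2 fold change was 0.30 in the members and -0.11 in all genes. All fold changes are on the log2(TPM + 1) scale, and all adjusted p-values are from limma with Benjamini-Hochberg adjustment over all genes tested. The p-values measure the spread between these pools, and in bulk RNA, fewer cells of a type and less RNA per cell cannot be told apart.

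*CDK1* (chromosome 6, 9409873 to 9417895) had 845 and 1280 TPM in the male E2.5 pools and 777 and 1022 TPM in the female ones. At E6.5 it had 1729 and 1797 TPM in males and 2147 and 1661 TPM in females. The lowest E6.5 library was thus above the highest E2.5 library, which gave a log2 fold change of 0.92 with a standard error of 0.18 (adjusted p = 0.0157). *CCNB1* (chromosome 10, 7264609 to 7272826), whose product activates CDK1, had 265, 390, 268 and 380 TPM at E2.5 and 482, 525, 767 and 518 TPM at E6.5, with the 2 male pools first. Its groups did not overlap either (log2 fold change 0.81, standard error 0.20, adjusted p = 0.0374).

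*CDC20* (chromosome 8, 20029182 to 20034557) had 129 and 180 TPM in males and 119 and 124 TPM in females at E2.5. At E6.5 it had 288 and 331 TPM in males and 454 and 283 TPM in females. It had the smallest adjusted p of the members, 0.00729, with a log2 fold change of 1.28 and a standard error of 0.21. *CDKN3* (chromosome 5, 56665337 to 56672072), a phosphatase that removes the activating phosphate from CDKs, had 40.6 to 78.7 TPM at E2.5 and 96.8 to 133 TPM at E6.5 (log2 fold change 1.02, adjusted p = 0.0201). *AURKA* (chromosome 20, 12020474 to 12027221), the kinase of the spindle poles, had 132 to 211 TPM at E2.5. At E6.5 it had 215 and 258 TPM in males and 484 and 376 TPM in females (log2 fold change 0.95, adjusted p = 0.0428).

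The centromere proteins that rose belong to the network that is built on the centromeric nucleosome and carries the outer kinetochore. *CENPP* (chromosome 12, 3743099 to 3861939) had 53, 82.8, 54.2 and 71.2 TPM at E2.5 and 154, 149, 172 and 130 TPM at E6.5 (log2 fold change 1.22, standard error 0.21, adjusted p = 0.00871). *CENPM* (chromosome 1, 49462031 to 49468047) had 26.1, 23.3, 11.1 and 20.3 TPM at E2.5 and 41.5, 45.1, 56.9 and 45.5 TPM at E6.5 (log2 fold change 1.24, adjusted p = 0.0230). In both, every E6.5 library was above every E2.5 library. *CENPW* moved in the same way, from 330 to 479 TPM at E2.5 to 589 to 813 TPM at E6.5 (log2 fold change 0.81, adjusted p = 0.0263). *CENPQ* had 49.0 to 100 TPM at E2.5 and 91.6 to 144 TPM at E6.5, and the groups overlapped (log2 fold change 0.99, adjusted p = 0.0432). The Z-linked *CENPH* and *CENPK*, at log2 fold changes of 0.86 and 0.81, overlapped between the stages, with the sexes apart within each, and are described with the other Z-linked members. Of the exon bases of *CENPP*, 17.9% are shared with *IPPK* on the opposite strand. Of those of *CENPH*, 37.9% are shared with *MRPS36* on the same strand. Their levels thus depend on whether reads over shared bases were counted or left out, which the sources used here do not give.

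*ORC6* (chromosome 11, 7821077 to 7826803) was the single member of the replication groups that rose. It had 263, 232, 213 and 202 TPM at E2.5 and 338, 392, 391 and 304 TPM at E6.5 (log2 fold change 0.64, standard error 0.16, adjusted p = 0.0397). *PLK2* (Z chromosome, 18019411 to 18025319) had 63.2 and 26.4 TPM in males and 21.6 and 26.1 TPM in females at E2.5. At E6.5 it had 16.2 and 19.9 TPM in males and 4.69 and 9.54 TPM in females, all below the E2.5 libraries (log2 fold change -1.41, standard error 0.33, adjusted p = 0.0273).

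**Figure D1:**
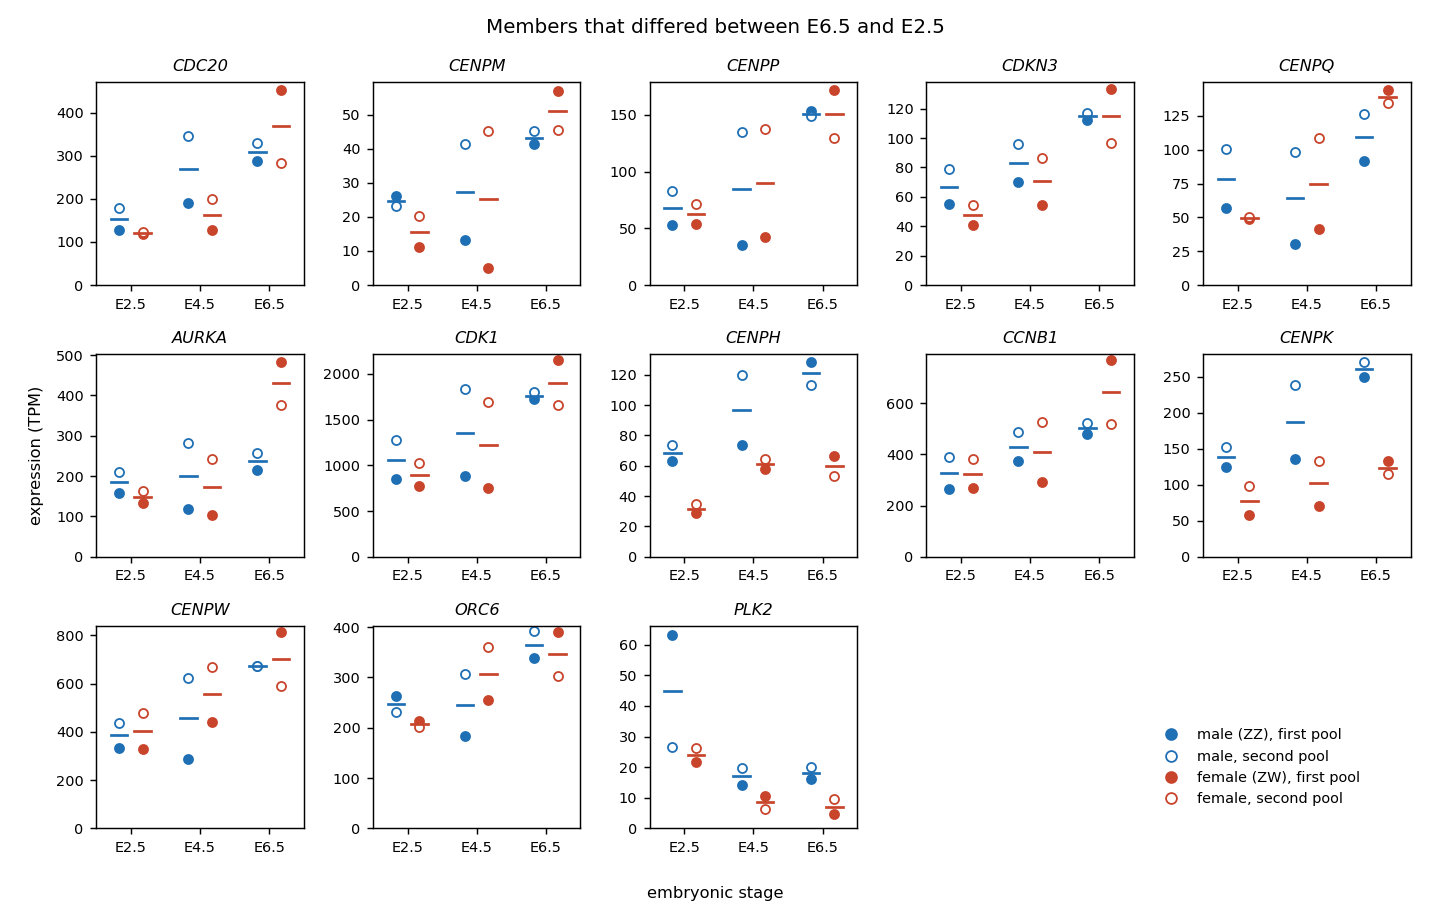
Expression in TPM (y axis, from 0) of the 13 members that differed between E6.5 and E2.5, by embryonic stage (x axis), with 1 point per library and a short line at the mean of the 2 pools. Males are blue and females red, first pools filled and second pools open. In *CDK1* the 4 E6.5 libraries sit between 1661 and 2147 TPM, above the 4 E2.5 libraries at 777 to 1280 TPM. At E4.5 the second pools lie above the first in 12 of the 12 members that rose, a count not made for the other genes that rose.

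Counted over all members tested, 11 had every E6.5 library above every E2.5 library, which was 13.1% of them beside 5.83% of all genes. The opposite held for 3, or 3.57% beside 8.60% of all genes: *PLK2*, *CCND1* and *CCNE1*. An unadjusted p under 0.05 was found in 30 members, 27 of them higher and 3 lower at E6.5. Counts at an unadjusted p are given for the members alone, here and below. The share over all genes is not set beside them, so they are not read as particular to the members.

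By role, the mitotic and centromere groups (mitotic entry and kinases, checkpoint and anaphase, centromere proteins) had 29 members tested, of which 11 rose and 0 fell, 27 had a positive log2 fold change and the median was 0.74. The other groups had 55 members tested, of which 1 rose and 1 fell, 26 had a positive log2 fold change and the median was -0.04. In the checkpoint and anaphase group 2 of 5 rose, in the mitotic entry group 3 of 6, and in the centromere group 6 of 18. The centromere group was filled by CENP names, and it thus includes *CENPJ*, which encodes a centriole protein. The pooling of these groups was not set beforehand. Of those that did not pass, *BUB1*, a checkpoint kinase, had 12.1 to 32.5 TPM at E2.5 and 29.1 to 56.1 TPM at E6.5 (log2 fold change 0.76, adjusted p = 0.141). *PLK1*, the polo kinase of mitotic entry, had 19.0 to 82.5 TPM and 34.6 to 79.4 TPM (0.67, adjusted p = 0.191). *CENPF*, a large kinetochore protein of G2 and M, had 7.55 to 29.7 TPM and 18.9 to 30.3 TPM (0.61, adjusted p = 0.353). *BUB3* had a log2 fold change of 0.53 (adjusted p = 0.134).

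The licensing and S phase members did not pass the test apart from *ORC6*. *MCM2* and *MCM5*, subunits of the replicative helicase ring, had log2 fold changes of -0.92 (adjusted p = 0.116) and 0.03 (adjusted p = 0.967), and *MCM6* one of -0.15. In *MCM2* the first male E2.5 pool had 115 TPM, the other E2.5 pools 27.8 to 37.3 TPM and the E6.5 pools 21.4 to 29.5 TPM. In *MCM5* the same pool had 189 TPM beside 41.9 to 83.5 TPM in the other E2.5 pools and 75.6 to 83.8 TPM at E6.5. *ORC1*, the largest subunit of the origin complex, had 12.6 to 35.1 TPM at E2.5 and 15.3 to 20.3 TPM at E6.5 (-0.50, adjusted p = 0.271), and *CDC6*, which loads the ring, 2.75 to 11 TPM and 2.32 to 5.14 TPM (-0.27). *CDC45*, a part of the working helicase, had 42.1 to 95.4 TPM and 77.3 to 113 TPM (0.63, adjusted p = 0.131). *GINS1*, another part, had 60.5 to 94.1 TPM and 60.5 to 99.2 TPM (-0.04), and *MCM10*, a factor of origin firing, 3.43 to 10.2 TPM and 3.50 to 7.35 TPM (-0.27). The helicase activation group had a median log2 fold change of 0.24, with 2 of 6 members at an unadjusted p under 0.05. The largest change in it was that of *GINS2*, a subunit of the GINS complex, with 6.33 to 39.1 TPM at E2.5 and 28.2 to 36.7 TPM at E6.5 (1.12, adjusted p = 0.0785), which was chosen after its values were seen.

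In the G1 group, *CCND2* was the main D-type cyclin at all stages, with 184 to 255 TPM at E2.5 and 169 to 269 TPM at E6.5 (log2 fold change -0.10). *CCND1* was close to constant within a stage, with 51.3 to 54.7 TPM at E2.5 and 36.2 to 45 TPM at E6.5, and although the groups did not overlap its log2 fold change of -0.40 did not pass (adjusted p = 0.201). *CCND3* had 10.7 to 23.6 TPM and 4.44 to 11.1 TPM (-1.07, adjusted p = 0.0806). *CDK6*, the partner kinase, had 4.53 to 12.1 TPM and 3.08 to 6.02 TPM (-0.66, adjusted p = 0.233). Of the cyclins of the G1 to S step, *CCNE1* had 10.5 to 12.9 TPM and 5.03 to 10.1 TPM (-0.59, adjusted p = 0.190), and *CCNE2* 28.9 to 66.5 TPM and 25.2 to 50.2 TPM (-0.17). *CCNA2*, the S and G2 phase cyclin, had 21.7 to 84.3 TPM and 54.6 to 103 TPM (0.96, adjusted p = 0.0909). *CDK2*, the kinase that cyclins E and A share, had 0.359 to 4.5 TPM and 4.09 to 7.35 TPM (1.20, adjusted p = 0.0938), and *CDC25A*, the phosphatase that activates it, 7.74 to 21.5 TPM and 11.9 to 15.6 TPM (-0.11). *E2F1*, the activator of S phase genes, had 2.55 to 13.4 TPM and 2.38 to 6.56 TPM (-0.30). In none of these groups did a member pass.

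**Figure D2:**
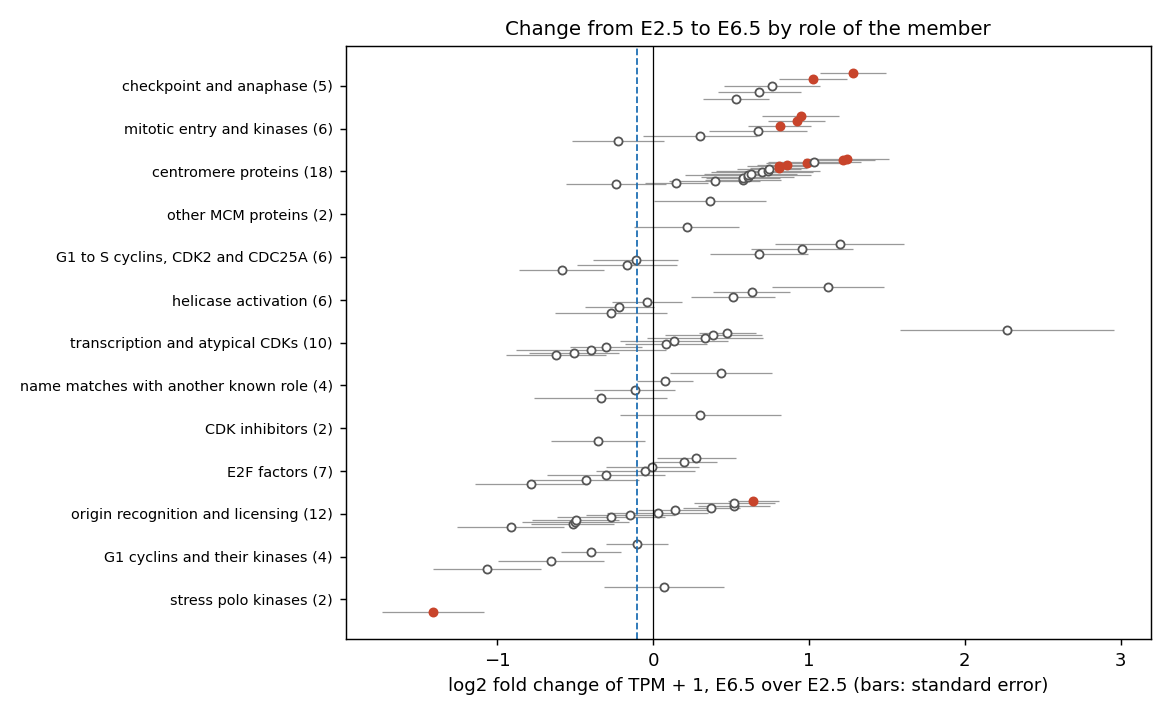
Log2 fold change of TPM + 1 from E2.5 to E6.5 (x axis) of the 84 members tested, 1 point per gene with a bar of 1 standard error, in rows by role with the number tested in brackets. Filled red points passed an adjusted p of 0.05, and the dashed line is the median of all genes tested, -0.11. The filled points on the right lie in the mitotic, checkpoint and centromere rows, apart from *ORC6*, and the one on the left is *PLK2*.

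Genes of the same processes outside the name rule were counted from lists chosen with earlier results of these data known. Of 18 spindle and kinetochore genes tested, 8 rose from E2.5 to E6.5, 0 fell and the median log2 fold change was 0.94. Beside this list and those that follow, 2.37% of all genes tested rose, 4.41% fell and their median was -0.11. *PRC1*, which bundles the microtubules of the spindle midzone, had 2.62 to 33.1 TPM at E2.5 and 18.5 to 32.8 TPM at E6.5 (log2 fold change 1.65, adjusted p = 0.0490). *NUSAP1*, a spindle protein, had 59.9 to 131 TPM and 227 to 397 TPM (1.59, adjusted p = 0.00684). Of 24 replication fork genes tested, 1 rose, *RFC3* of the clamp loader (1.20, adjusted p = 0.0402), with a median of 0.02 for the list. *PCNA*, the sliding clamp, had 474 to 658 TPM at E2.5 and 490 to 590 TPM at E6.5, with a log2 fold change of 0.00. *GMNN*, the inhibitor of licensing, had one of 0.04 and *TOP2A*, the topoisomerase of mitotic chromosomes, one of 0.26 (adjusted p = 0.588).

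*RRM2*, a subunit of ribonucleotide reductase, had 169 to 403 TPM at E2.5 and 307 to 493 TPM at E6.5 (0.70, adjusted p = 0.106). Of 8 genes of RB and cell cycle arrest tested, 1 rose. It was *GADD45B*, a stress-induced gene, with 2.62 to 3.23 TPM at E2.5 and 6.53 to 12.7 TPM at E6.5 (1.23, adjusted p = 0.0374). *RB1* had 4.05 to 8.19 TPM and 3.54 to 4.56 TPM (-0.45, adjusted p = 0.356).

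The number of members called depended on the libraries in the fit. It was 2 without the second male or the first female E6.5 pool, 5 without the first female E2.5 pool, and 6 without the second female pool of either stage. *CDC20* and *CENPP* remained in each of these, and *CDC20* was the 1 member called when all 12 libraries were put in 1 fit. With no filter on low values, 4 members were called, *CDC20*, *CDKN3*, *CENPH* and *CENPP*. Scaling by median of ratios, which moved the median of all genes from -0.11 to 0.02, gave 20 members that rose and 1 that fell, with a positive log2 fold change in 60 members in place of 53. For all genes it gave 660 that rose and 597 that fell in place of 318 and 591. With the hemoglobin genes left out and TPM rescaled, 12 members rose and 1 fell, 12 of the 13 being shared. The change also went with gene length: the members that rose were 1218 to 2122 bases long, beside a median of 2336 bases over the 91 members. Spearman's rho of the log2 fold change with gene length was -0.38 across the 84 members and -0.23 across all genes, which share their libraries and are not independent, and the part of length in the result was not tested.

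*CDK15*, a kinase without a settled role in the cycle, had the largest log2 fold change of all members, 2.27, and did not pass (adjusted p = 0.0680). It was chosen after its values were seen. It had 41.5 TPM in the second female E6.5 pool, 2.26 to 5.69 TPM in the other E6.5 pools and 0 to 2.39 TPM at E2.5 and E4.5. In the same pool the summed level of the 4 mesonephric markers found was 30.4 TPM, with *CUBN* at 17.8 TPM and *PAX2* at 8.17 TPM, beside 0.528 to 8.0 TPM in the other 11 libraries. The part of mesonephric RNA in this value was not tested.

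Between E2.5 and E4.5, 0 of 84 members were called by limma, beside 0.0739% of all genes, or 10 of 13540. An unadjusted p under 0.05 was found in 4 members, and limma-voom on the recovered reads called 0 members. The lowest adjusted p was that of *PLK2*, 0.373, which had 14.2 and 19.8 TPM in the male and 10.5 and 6.51 TPM in the female E4.5 pools, each below the 4 E2.5 pools (log2 fold change -1.33, standard error 0.38). Between E4.5 and E6.5, 0 of 85 members and 0 of 13360 genes (0%) were called by limma, with 13 members at an unadjusted p under 0.05, and 0 by limma-voom, with 7. The smallest adjusted p was 0.493, and the smallest unadjusted p was that of *GINS2*, with 7.13 to 24.7 TPM at E4.5 and 28.2 to 36.7 TPM at E6.5 (log2 fold change 1.29).

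The spread between pools was widest at E4.5. More than a 2-fold difference between the 2 pools of a group was found in 32 and 36 of the 80 members tested there in males and females, in 14 and 9 at E2.5 and in 1 and 4 at E6.5. The members' shares at E4.5, 40% and 45%, were close to those of all genes, 41.3% and 44.3%. At E2.5 the members' shares were 17.5% and 11.2% beside 18.2% and 14.1% of all genes, and at E6.5 they were 1.25% and 5% beside 5.84% and 7.66%. On the log2(TPM + 1) scale, 15 members were more than 2-fold higher in the first pool in both sexes and 10 were more than 2-fold lower in both, while 2 were past 2-fold in opposite directions. These were 18.8% and 12.5% of the members, beside 21.9% and 5.11% of all 12229 genes. The E4.5 pools with the same number are not said to share a preparation.

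The members higher in the first pools were *CCND3*, *CCNE1*, *CDC25B*, *CDC6*, *CDK9*, *CDK12*, *CDKN1B*, *CENPJ*, *E2F1*, *E2F4*, *E2F8*, *MCM2*, *MCM3*, *PLK1* and *PLK3*. *CCND3* had 70.5 TPM in the first and 6.06 TPM in the second male pool, and 76.8 and 8.95 TPM in the female ones. *CDKN1B* had 58.8 and 6.79 TPM in males and 39.3 and 6.81 TPM in females, and *E2F1* 28.3 and 5.17 TPM in males and 29.5 and 1.84 TPM in females. In all 3 the first pools were also above every E2.5 and E6.5 library.

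The members lower in the first pools were *AURKA*, *BUB3*, *CDK1*, *CDK7*, *CENPM*, *CENPP*, *CENPQ*, *E2F5*, *ORC4* and *ORC5*, of which *AURKA*, *CDK1*, *CENPM*, *CENPP* and *CENPQ* were among the 12 that rose by E6.5. *ORC4*, a subunit of the origin complex, had 71.7 and 329 TPM in males and 61.0 and 412 TPM in females, beside 210 to 363 TPM in the E2.5 and E6.5 libraries. *CENPM* had 13.2 and 41.5 TPM in males and 5.14 and 45.3 TPM in females. *CDK1* had 883 and 1831 TPM in males and 750 and 1694 TPM in females. In 12 of the 12 members that rose, the mean of the first pools was nearer to the E2.5 mean than to the E6.5 mean. That of the second pools was nearer to the E6.5 mean. The first-pool mean was below the E2.5 mean in *AURKA*, *CDK1*, *CENPK*, *CENPM*, *CENPP*, *CENPQ*, *CENPW* and *ORC6*. It lay between the E2.5 and E6.5 means in *CCNB1*, *CDC20*, *CDKN3* and *CENPH*. The 12 members were chosen for a higher level at E6.5, and the same count was not made for the other genes that rose. The log2 ratios of first to second pool correlated between the sexes across all 12229 genes (Pearson's r 0.67) as well as across the 80 members (0.80).

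The first E4.5 pools were the libraries with the fewest reads. The 15 members higher in them had a median length of 2924 bases and the 10 lower ones 1775 bases. Spearman's rho between gene length and the log2 ratio of first to second pool was 0.41 in males and 0.44 in females across the 80 members, and 0.16 and 0.15 across all genes. These are descriptions across genes of the same libraries, and the part of depth or length in the contrast was not tested. With both first E4.5 pools left out, 22 members had an unadjusted p under 0.05 between E2.5 and E4.5 in place of 4, and 0 were called (smallest adjusted p = 0.0963 from limma). The count over all genes is not set beside these, so the move from 4 to 22 is not read as particular to the members.

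**Figure D3:**
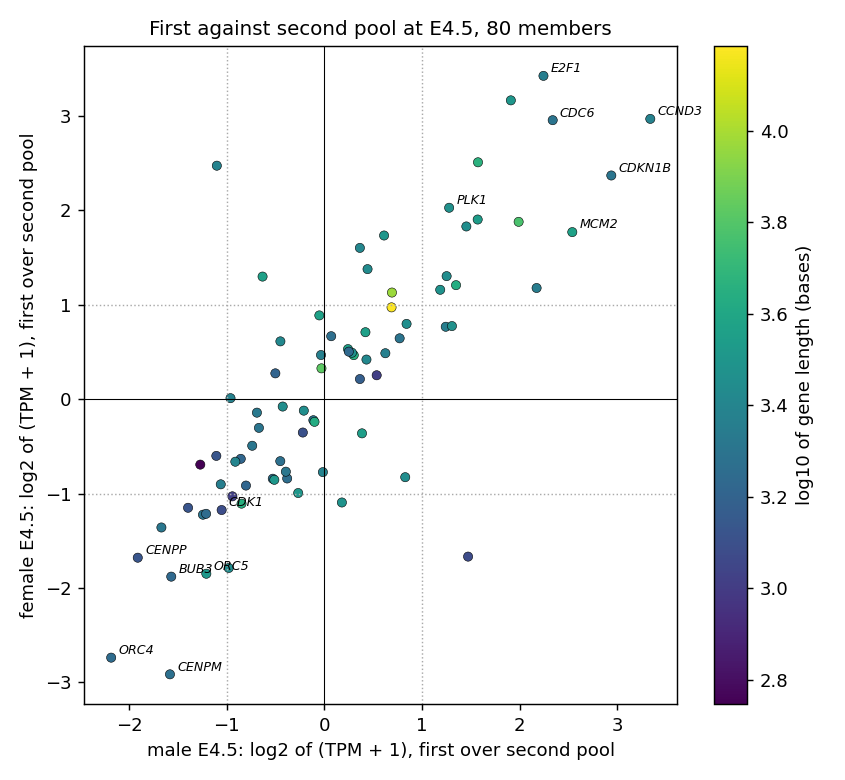
Log2 ratio of TPM + 1 of the first over the second E4.5 pool in males (x axis) and females (y axis) for the 80 members tested, 1 point per gene, coloured by the log10 of gene length in bases. Dotted lines mark 2-fold. The 15 members past 2-fold in both sexes at the upper right and the 10 at the lower left were apart in the same direction in both sexes, with a median length of 2924 bases at the upper right and 1775 bases at the lower left.

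Between female and male cPGCs at E2.5, limma called 0 of 82 members beside 0.242% of all genes, and 18 had an unadjusted p under 0.05, all of them lower in females. Limma-voom called 0, with 15 at an unadjusted p under 0.05. The first male pool lay above the second in *MCM5* (189 and 83.5 TPM) and *MCM2* (115 and 35.9 TPM) and below it in *CDK1* (845 and 1280 TPM). The number called depended on the pools in the fit. The median log2 fold change, female over male, was -0.67 in the members and -0.34 in all genes, and in 47 members (57.3%, beside 36.5% of all genes) both female pools were below both male pools. After scaling by median of ratios the medians were -0.33 and -0.02. The smallest adjusted p, 0.156, was that of *CDK7* on the Z chromosome. The summed level of the members was 6576 and 6952 TPM in the male pools and 4541 and 5810 TPM in the female pools. Hemoglobin genes took 4.45% and 1.59% of TPM in the male and 16.5% and 0.257% in the female pools. With these genes left out, the medians were -0.60 and -0.27. The germ cell markers were also lower in females at E2.5 by their median, -0.96, with 0 of the 7 positive, 3 at an unadjusted p under 0.05 and 0 called, and their summed level was 4537 and 3381 TPM in the male and 2505 and 2796 TPM in the female pools. The log2 fold change was -1.45 in *NANOG* (adjusted p = 0.287), -1.40 in the Z-linked *DDX4* (adjusted p = 0.138) and -0.96 in *DND1* (adjusted p = 0.422). In each of these the first male pool was the highest at E2.5. For *DND1* it had 526 TPM, beside 147 TPM in the second male pool and 150 and 136 TPM in the female pools. *DAZL* had 2222 and 2536 TPM in the male and 1848 and 2252 TPM in the female pools. *TDRD1* had 63.4 and 43.5 TPM beside 36.8 and 58.2 TPM, and *PRDM1* 8.13 and 6.19 TPM beside 5.15 and 8.23 TPM. *PRDM14* had 13.0 and 4.41 TPM beside 2.19 and 2.77 TPM. The weakest log2 fold change in the list was -0.10, beside the median of -0.34 in all genes. The part of germ cell content in the members' difference was not tested.

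At E4.5, 0 of 80 members were called between the sexes by limma, beside 0.0164% of all genes, with 0 at an unadjusted p under 0.05 and a median log2 fold change of -0.10, and limma-voom also called 0. The smallest p was that of *CDK7*. At E6.5, 1 of 83 members was called, *CENPK*, lower in females, beside 0.806% of all genes lower and 2.19% in either direction. The median log2 fold change was -0.06 in the members and -0.08 in all genes. An unadjusted p under 0.05 was found in 7 members, of which *CENPH*, *CDK7*, *PLK2* and *PLK4* were lower in females beside *CENPK*. *AURKA* and *BUB3* were higher, *AURKA* with 484 and 376 TPM in females beside 215 and 258 TPM in males (log2 fold change 0.85, adjusted p = 0.116). *AURKA*, *BUB3* and *PLK4* were chosen for this comparison after their values were seen.

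The call of *CENPK* did not hold in most alternatives. Limma-voom, median-of-ratios scaling, a fit of all 12 libraries and a test with no filter on low values each called 0 members. Without either male E6.5 pool the count was 0, without the first female pool 6 and without the second female pool 3. Whether the sexes differed more at a stage than at another was tested as an interaction on all 12 libraries, and 0 of 85 members and 0% of all 14154 genes were called by limma from E4.5 to E6.5 and likewise from E2.5 to E6.5, with 1 and 8 members at an unadjusted p under 0.05. Limma-voom also called 0 members in both. The smallest p-values were those of *CCNA1*, a cyclin of germ cells, and of *CDK10*, with adjusted p-values of 1.0 and 0.752.

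*CENPK*, the member that passed between the sexes, is Z-linked, as were 3 of the other 6 members at an unadjusted p under 0.05 at E6.5, *CENPH*, *CDK7* and *PLK2*, while *AURKA*, *BUB3* and *PLK4* lie on numbered chromosomes. In birds, males carry 2 copies of the Z chromosome and females 1, and compensation for this is known to be incomplete for many genes. There were 7 members on Z and 0 on W: *CDK7*, *CENPH*, *CENPK*, *PLK2*, *CDC20B*, *CDKN2A* and *CDKN2B*. *CDK7* (21927561 to 21950303), the kinase that activates other CDKs and a part of the transcription factor TFIIH, and *CENPH* (21910292 to 21917147) are neighbours, and *CENPK* lies at 20549041 to 20570488. The products of *CENPH* and *CENPK* belong to the same centromere complex as those of *CENPI*, on chromosome 4, and *CENPM*, on chromosome 1.

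*CDK7* had 178 and 206 TPM in male and 81.0 and 82.5 TPM in female pools at E2.5. It had 112 and 298 TPM beside 55.4 and 124 TPM at E4.5. At E6.5 the values were 203 and 296 TPM beside 120 and 129 TPM. The sexes overlapped at E4.5 and not at E2.5 and E6.5, and the male mean was 2.35, 2.28 and 2.01 times the female mean. *CENPK* had 125 and 152 TPM in male and 57.7 and 97.8 TPM in female pools at E2.5, and 136 and 238 TPM beside 70.4 and 134 TPM at E4.5. At E6.5 it had 249 and 271 TPM beside 133 and 114 TPM, and the female over male log2 fold change, -1.07 with a standard error of 0.22, passed (adjusted p = 0.0468, between 0.00453 and 0.450 over the alternatives).

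*CENPH* had 62.9 and 73.7 TPM in male and 28.8 and 34.6 TPM in female pools at E2.5, and 129 and 113 TPM beside 66.7 and 53.5 TPM at E6.5 (log2 fold change -1.0, adjusted p = 0.0925). Within each sex, both E6.5 pools of *CENPH* were above both E2.5 pools, and the same held for *CENPK*. *PLK2* had a log2 fold change of -1.29 at E6.5 (adjusted p = 0.156), and its male mean was 1.88, 2.00 and 2.54 times the female mean at the 3 stages. *CDC20B* had at most 2.16 TPM.

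Both female pools were below both male pools in 5 of the 5 Z-linked members tested at E2.5, in 3 of 4 at E4.5 and in 5 of 5 at E6.5. The same was found in 81.9%, 50.0% and 78.2% of all Z-linked genes tested. The median log2 fold change of these members was -1.08, -0.91 and -1.0, beside -1.11, -0.78 and -0.87 over all Z-linked genes. The Z-linked members thus lay near the chromosome's own values. In the members outside Z, the medians were -0.61, -0.07 and -0.03, beside -0.32, 0.05 and -0.06 over all genes on numbered chromosomes.

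**Figure D4:**
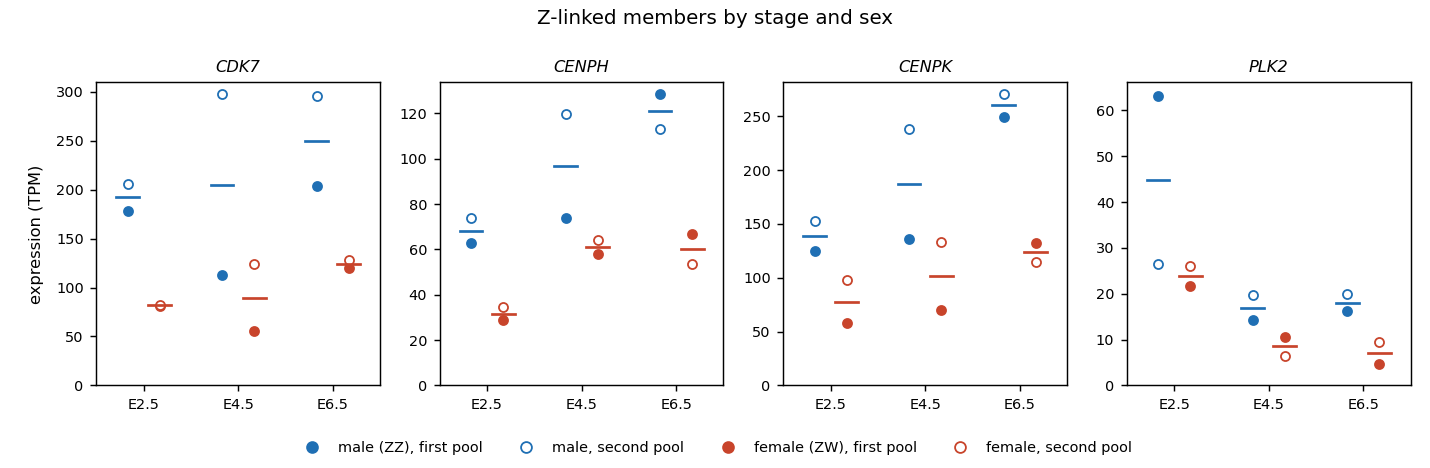
Expression in TPM (y axis, from 0) of the 4 Z-linked members with the highest levels, by embryonic stage (x axis), with 1 point per library and a short line at the mean of the 2 pools. Males (ZZ) are blue and females (ZW) red. In *CENPK* the male pools are above the female pools at each stage, with 249 and 271 TPM beside 133 and 114 TPM at E6.5, and *PLK2* is lower at E6.5 than at E2.5 in both sexes.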

How the data were processed

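RNA of sorted PGCs was analysed in 12 libraries, made by SMART-seq v4 and Nextera XT. Per the submitters, reads were trimmed with Trimmomatic 0.39 and with Trim Galore 0.6.6 and cutadapt 3.1, mapped to GRCg6a with STAR 2.7.3a and counted with featureCounts 2.0.1. The authors deposited TPM for 24356 genes with gene lengths and positions, and how counts became TPM is not given in the sources used here. TPM multiplied by length was a whole multiple of 1 step per library in 100% of the low values (within 0.01), and whole reads were recovered from it. Limits from counts cover counting error only.

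The main test was limma 3.58.1 in R 4.3.3 on log2(TPM + 1) with a trend, on genes at 1 TPM or more in at least 2 libraries of the fit. Stages were compared on 8 libraries with sex as a covariate, sexes on the 4 libraries of a stage, and their interaction on all 12. A gene was called at an adjusted p under 0.05. An exact permutation test of 4 against 4 cannot go below 0.0286, and of 2 against 2 below 0.333. The pairing of pools was checked by the correlation of the deviations of same-numbered pools. The procedure was run on simulated counts, drawn independently for each library. Shared differences between same-numbered pools, such as those at E4.5, were not simulated, so the run does not bear on them.

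The members, role lists and tests were chosen with earlier results of these data known. The members named were, by a rule, up to 10 called per stage comparison and direction, all called between sexes or the smallest p, a fixed set by role and the 5 highest and 5 lowest. From the lists outside the rule, PCNA, RRM2, TOP2A, GMNN and RB1 were fixed, with the 2 called genes that changed most. Others were chosen after their values were seen. Of the fixed genes, *TYMS* and *MKI67* were not found among the table's names. An item is not reported here. Python 3.11.15 and matplotlib 3.10.9 served for tables and figures.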

Additional observations from a re-analysis of the deposited data

How the results depend on the processing

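The count of members called between E2.5 and E6.5, 13, was 14 with a pseudocount of 0.1, 15 with a filter at a mean of 5 TPM, 15 with limma-voom and 13 with the hemoglobin genes left out. It moved to 4 with no filter on low values, to 21 with median-of-ratios scaling, to 0 with a log2 fold change of 3 or more and to 1 with all 12 libraries in 1 fit, and ran from 2 to 17 when 1 library at a time was left out. In the last, the lone pool of a group was assumed to vary like the others. The sex comparison at E6.5, with 1 member called, gave 0 with no filter, with median-of-ratios scaling, with limma-voom, with a log2 fold change of 3 or more and with all 12 libraries, and 0 to 6 with 1 library left out. At E2.5 the sex comparison gave 0 to 9 with 1 library left out. At E4.5, and in the other comparisons, leaving out 1 library gave 0 each time. With the replicate number as a block, 9 members were called between E2.5 and E6.5. In the comparisons of the sexes with this block, 7 were called at E2.5, then 1 at E4.5 and none (0) at E6.5, and the other 4 comparisons gave 0. Counts under the alternatives, here and above, are of members alone, apart from median-of-ratios scaling between E2.5 and E6.5. The share of all genes called is not set beside them, so they are not read as particular to the members. Same-numbered pools of the sexes had correlated deviations across genes at E2.5 (0.232) and E4.5 (0.633) and not at E6.5 (-0.112), and those of different stages ran from -0.181 to 0.378. The numbers are not said to mark a shared batch, so that the pairing is not part of the design. A block with the numbers crossed at E6.5, chosen after seeing the data, called 4 members. Leaving out both first E4.5 pools and leaving out hemoglobin genes were also chosen after seeing the data. The cause of these moves was not tested. Fits with libraries left out also rested on fewer libraries, and the part of this was not tested either. For single members, 46 results were followed, chosen by an unadjusted p under 0.05 in the main fit, with a stricter limit between the sexes at E2.5. None of their 717 alternatives turned a direction, which this choice and the shared libraries made likely beforehand. Calls were less stable: between E2.5 and E6.5, *CDC20* lost its call in 1 of 17 alternatives and *ORC6* in 11 of 17. Depth limits the members with few reads, of which 4 were under 1 TPM in every library.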
